A study of Mus musculus with 8 samples.

Results

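Voltage-gated potassium (Kv) channels open when the membrane depolarises and let potassium leave the cell, which ends the action potential and sets the interval before the next one. Alpha subunits form a ring around a pore. Kv1, Kv2, Kv3 and Kv4 subunits assemble within their own family, silent modifier subunits join Kv2 channels, and beta subunits bind Kv1 channels from the cytoplasm. Cerebellar neurons fire at high rates and depend on Kv1, Kv3 and Kv4 channels, and mutations of several of these genes cause inherited ataxia; in skeletal muscle fibres Kv currents repolarise the fibre after each action potential.

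The 9 subunits described here were Kcna1, Kcna2 and Kcna7 (Kv1 family), Kcnc1 and Kcnc4 (Kv3 family), Kcnd2 and Kcnd3 (Kv4 family), the beta subunit Kcnab1 and the modifier subunit Kcng4. They are 9 of the 19938 genes that the array annotation named, each taken as its brightest probe set by mean over the 8 arrays, and 8 of them had a single probe set. Affymetrix Mouse Gene 1.0 ST arrays, which measure RNA through many short probes per gene, were hybridised with total RNA from mice aged 3 months. The groups were cerebellum and TA muscle of knock-in mice for spinocerebellar ataxia type 17 (SCA17 KI; replicates 94 and 97) and of wild-type (WT) mice (95 and 96), with 2 arrays in each of 4 groups. In SCA17 the polyglutamine stretch of the TATA-box-binding protein, TBP, is too long. The sources used here give neither the repeat length nor the zygosity and strain of the KI mice. The study text states 3 mice per genotype, no source ties an array to one animal, and the p values therefore measure the spread between these arrays, which may be technical.

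Levels are the deposited log2 values, on which a step of 1 is a doubling. The 40th percentile of all probe sets, used below as the mark of a low level, lay between 4.96 and 5.05. The 5 skeletal muscle markers averaged between 11.48 and 11.69 on the KI muscle arrays and between 11.81 and 11.87 on the WT muscle arrays. On the cerebellum arrays they averaged between 5.32 and 5.61. The 6 matched cerebellar neuron markers averaged between 10.01 and 10.58 in cerebellum, and 3 of them (Calb1, Gabra6 and Neurod1) were below the 40th percentile on all muscle arrays. For Tbp, mean levels were 6.87 ± 0.10 (KI) and 6.76 ± 0.08 (WT) in muscle, 7.60 ± 0.11 (KI) and 7.78 ± 0.10 (WT) in cerebellum (SD, n = 2). Its probe set does not tell the expanded allele from the normal one, so it does not check the genotype labels.

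The first comparison asked which of the 9 subunits differ between KI and WT muscle. Kcng4 and Kcnc1 fell in KI muscle, by 2.86-fold and 1.74-fold. Kcnd2 was called lower as well, but both of its KI arrays were below their 40th percentile and the call was lost in 11 of 18 alternatives, so no fold is given for it. All 9 were tested, 3 were called lower and none higher at a Benjamini-Hochberg adjusted p under 0.05 in limma. Over all 13933 genes tested in muscle 3.55% were called, and 0.89% were called lower. The other 6 did not pass: Kcnc4, Kcnab1, Kcnd3 and Kcna7 had negative differences, and Kcna1 and Kcna2 had small positive ones. The median difference of the 9 was -0.47, against 0.03 over all genes tested. Both KI arrays lay below both WT arrays in 7 of the 9, where 19.9% of all tested genes did so, and above them in 1 (30.3% of all tested genes). An unadjusted p under 0.05 was found for 6 of the 9 and for 20.3% of all tested genes. The 9 were chosen with earlier results of these data known. The shares set beside all genes, here and below, therefore describe these 9 and test nothing. Kcnd2, which entered the muscle test only through its WT arrays, is counted in the 3, the 7 and the 6.

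**Figure D1:**
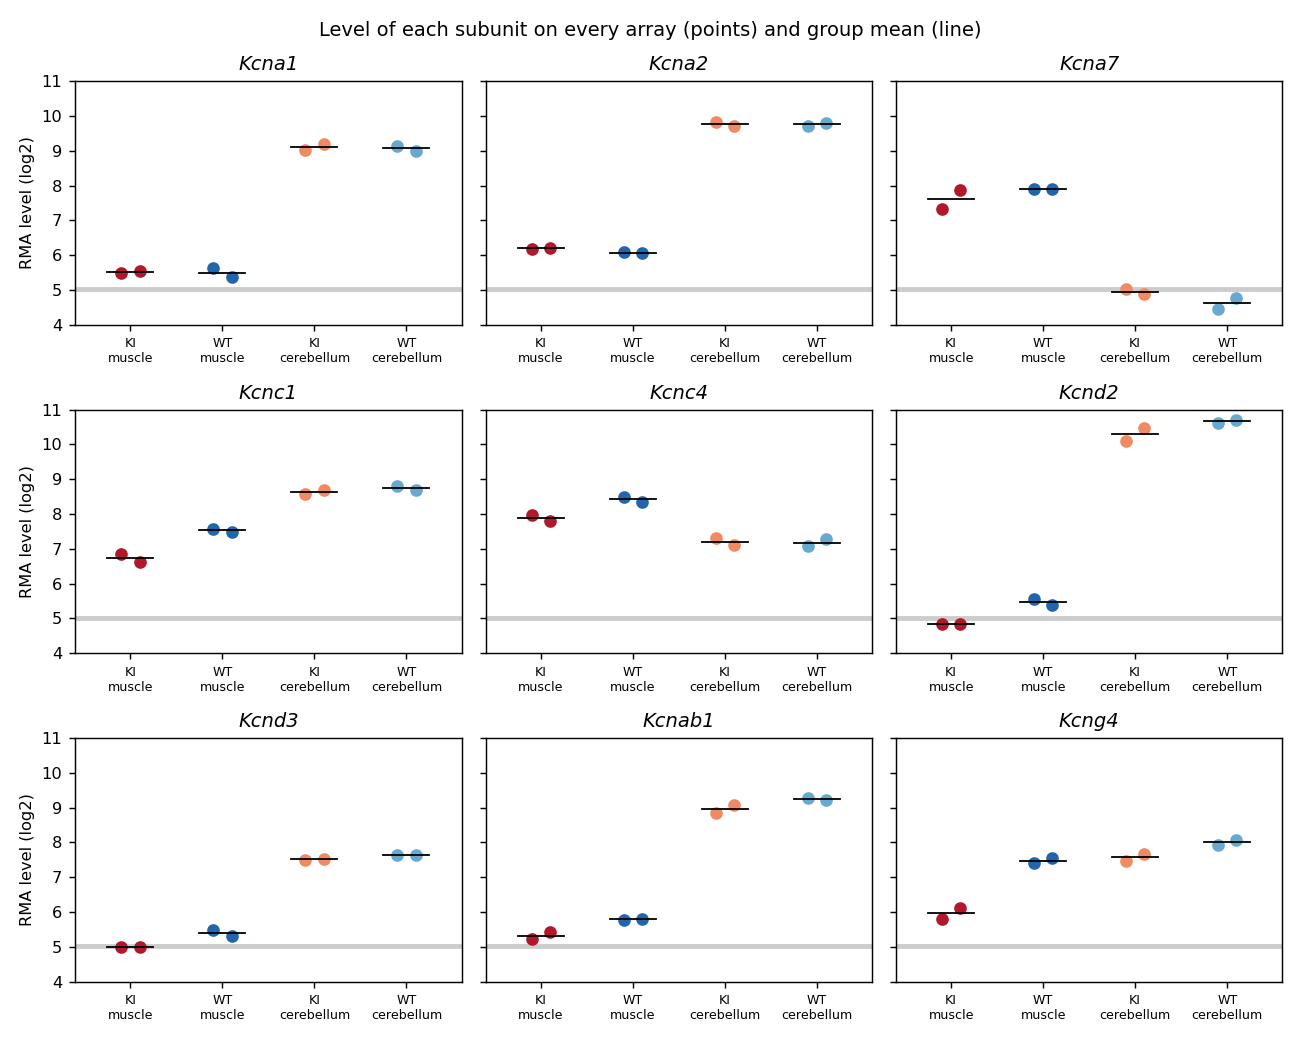
Log2 level (vertical axis) of each of the 9 subunits on every array (points; replicate 94 or 95 at the left of a pair, 97 or 96 at the right), with the mean of each group of 2 as a line; the grey band spans the 40th percentiles of the 8 arrays. Kcng4 lies lowest in KI muscle, the KI muscle points of Kcnd2 lie under the band, and Kcna7 is the only one of the 9 that lies at or under the band in the cerebellum.

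Kcng4 encodes a modifier subunit that carries no current alone and alters the gating of Kv2 channels. Its level was 5.79 and 6.13 in KI muscle (replicates 94 and 97) against 7.41 and 7.55 in WT muscle (95 and 96). The KI arrays were more than a full log2 step below the WT arrays, with a gap far wider than the spread within either group. The log2 difference was -1.52 ± 0.14 (SE; 95% interval -1.84 to -1.20; limma adjusted p = 0.00158). It was called in all 19 alternatives run for this comparison, each single array left out among them, with differences from -1.69 to -1.35 and adjusted p from 0.000366 to 0.0187.

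Kcnc1 encodes a Kv3 subunit, whose fast opening and closing lets neurons fire at high rates. It read 6.85 and 6.61 in KI muscle and 7.57 and 7.49 in WT muscle, so the groups did not overlap. The log2 difference was -0.80 ± 0.12 (SE; 95% interval -1.07 to -0.53; limma adjusted p = 0.0126). The call was lost without WT muscle replicate 95 (adjusted p = 0.0798) or without KI muscle replicate 97 (0.0701), and with all probe sets in the fit (0.0615), while the difference stayed between -0.92 and -0.68 in all 19 alternatives. Kcnc4, the other Kv3 gene of the 9, whose product inactivates fast and is known from skeletal muscle, read 7.98 and 7.80 in KI and 8.50 and 8.34 in WT muscle. Its difference of -0.54 ± 0.13 did not pass (95% interval -0.83 to -0.24; limma adjusted p = 0.0584), although the arrays of the genotypes did not overlap. It passed with a filter at the 60th percentile (0.0407) and with trended and robust variances (0.0319).

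Kcnd2 and Kcnd3 encode Kv4 subunits, which carry the transient A-type current of dendrites and cardiac muscle. Kcnd2 read 4.85 and 4.84 in KI muscle and 5.55 and 5.40 in WT muscle. Both KI arrays were below their 40th percentile and both WT arrays above it. Kcnd2 thus entered the test only through the WT group, and the size of its difference depends on the background of the array. Its log2 difference was -0.63 ± 0.14 (SE; limma adjusted p = 0.0401). The call was lost with each muscle array left out: adjusted p was 0.136 without KI replicate 94, 0.132 without KI replicate 97, 0.204 without WT replicate 95 and 0.0863 without WT replicate 96. It was also lost without WT cerebellum replicate 95 or 96 (0.0778 each), which changes only the pooled spread. Kcnd3 was nearly as low in muscle, at 5.01 and 4.99 in KI and 5.49 and 5.32 in WT. Its difference of -0.41 ± 0.11 did not pass (95% interval -0.64 to -0.17; adjusted p = 0.0732).

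Of the remaining subunits, the beta subunit Kcnab1, which gives Kv1 channels fast inactivation, read 5.22 and 5.42 in KI and 5.78 and 5.81 in WT muscle (difference -0.47 ± 0.12, SE; 95% interval -0.74 to -0.20; limma adjusted p = 0.072, and 0.0448 with trended and robust variances). Kcna7, a Kv1 subunit of muscle, read 7.33 and 7.87 in KI and 7.90 and 7.91 in WT. The WT arrays were nearly equal while the KI arrays were spread more widely, and the difference of -0.31 ± 0.18 did not pass (95% interval -0.71 to 0.09; adjusted p = 0.369). It was -0.04 without KI replicate 94 and -0.58 without KI replicate 97. Kcna1, the gene of episodic ataxia type 1, read 5.50 and 5.54 in KI and 5.62 and 5.38 in WT muscle, with overlapping groups (0.02 ± 0.12; 95% interval -0.26 to 0.30). Kcna2, which forms axonal channels together with Kcna1, read 6.19 and 6.21 in KI and 6.08 and 6.06 in WT muscle (0.13 ± 0.10; 95% interval -0.10 to 0.36; adjusted p = 0.517). Its dimmer probe set went the other way in muscle, with 4.22 and 4.64 in KI and 5.12 and 4.48 in WT, so the sign for Kcna2 depends on the probe set.

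Kcng4, Kcnc1 and, less securely, Kcnd2 are the subunits called lower in muscle, and the 250 bases before their RefSeq start sites (GRCm38.p6) are shown because TBP binds the TATA box of core promoters. Capitals mark matches to the E-box, CANNTG, the motif bound by myogenic factors such as MyoD; the sequences read 5′ to 3′ toward the start site.
Kcng4 (chr8:119635681-119635930, minus strand): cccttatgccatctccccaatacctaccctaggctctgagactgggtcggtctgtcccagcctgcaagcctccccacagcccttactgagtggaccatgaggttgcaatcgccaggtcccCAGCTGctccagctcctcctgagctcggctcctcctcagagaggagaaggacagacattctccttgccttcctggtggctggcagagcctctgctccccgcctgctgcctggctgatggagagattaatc
Kcnc1 (chr7:46396218-46396467, plus strand): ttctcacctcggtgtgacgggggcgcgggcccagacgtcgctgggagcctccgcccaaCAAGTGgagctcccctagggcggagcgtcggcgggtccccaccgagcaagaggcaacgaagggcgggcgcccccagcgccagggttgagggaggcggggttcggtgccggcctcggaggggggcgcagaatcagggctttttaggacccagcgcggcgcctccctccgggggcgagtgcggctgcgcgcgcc
Kcnd2 (chr6:21215096-21215345, plus strand): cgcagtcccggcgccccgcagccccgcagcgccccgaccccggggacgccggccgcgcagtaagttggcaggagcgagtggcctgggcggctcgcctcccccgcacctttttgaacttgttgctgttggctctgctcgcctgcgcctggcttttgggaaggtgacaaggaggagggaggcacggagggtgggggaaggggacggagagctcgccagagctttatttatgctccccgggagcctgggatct

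The promoter table held 10 entries for 8 of the 9 subunits, 3 of them for Kcnab1. None of the 10 windows held the TATA-box letters TATAAA on either strand, and 12.4% of the 32851 windows of all genes did. E-box letters were present once in the Kcng4 and Kcnc1 windows and not in that of Kcnd2, against 66.2% of all windows with at least 1. The muscle-enriched Kcna7 had 3 E-box matches, Kcna2, which was lower in muscle than in cerebellum, had 2, and Kcnc4 had 1. The median of all windows was 1. The Sp1 GC box, GGGCGG, matched 3 times in Kcnc1, once in Kcnd2 and not in Kcng4, against 32.7% of all windows. The 250-base windows of Kcnc1 and Kcnd2 were rich in G and C (74.4% and 68.8%), that of Kcng4 less so (60.4%), and the median of all windows was 52.4%. The MEF2 motif had no match in any of the 10 windows and matched in 2.92% of all windows; E-box and TATA-box letters can overlap other motifs, and a match, or its lack, says only whether these letters stand in the window.

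In the cerebellum, the tissue that gives the disease its name, no subunit passed. Of the 9, 8 were tested, and 0 were called in limma, where 0.205% of all 13641 tested genes were; 3 of the 8 had an unadjusted p under 0.05, against 5.33% of all tested genes. Both KI arrays lay below both WT arrays in 5 of the 8, against 20% of all tested genes, in Kcnc1 only in digits beyond those printed. The median of the 8 differences was -0.12, against -0.01 over all genes.

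Kcng4 read 7.47 and 7.67 in KI and 7.92 and 8.08 in WT cerebellum, a difference of -0.43 ± 0.14 (SE; 95% interval -0.75 to -0.11; unadjusted p = 0.014, limma adjusted p = 0.74). Kcnd2, which cerebellar granule cells express strongly, read 10.10 and 10.48 in KI and 10.62 and 10.69 in WT (-0.36 ± 0.14; 95% interval -0.67 to -0.05; adjusted p = 0.824). Kcnab1 read 8.85 and 9.08 in KI and 9.29 and 9.21 in WT (-0.29 ± 0.12; 95% interval -0.56 to -0.01; adjusted p = 0.912). These are the 3 with an unadjusted p under 0.05, and in each the KI arrays were the lower ones. Kcnd3, a gene of inherited spinocerebellar ataxia, read 7.51 and 7.52 in KI and 7.65 and 7.63 in WT, a narrow gap without overlap (-0.12 ± 0.11; 95% interval -0.36 to 0.11). Kcnc1 read 8.56 and 8.70 in KI and 8.80 and 8.70 in WT (-0.12 ± 0.12; 95% interval -0.40 to 0.15). Kcna1 (9.11 ± 0.12 in KI and 9.07 ± 0.09 in WT, SD, n = 2), Kcna2 (9.82 and 9.70; 9.72 and 9.80) and Kcnc4 (7.30 and 7.10; 7.08 and 7.28) overlapped between genotypes. Their 95% intervals ran from -0.23 to 0.32, from -0.23 to 0.23 and from -0.27 to 0.32. Kcna7 was not tested in the cerebellum: it read 5.02 and 4.89 in KI and 4.45 and 4.78 in WT, with 1 of the 4 arrays at or above its 40th percentile.

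**Figure D2:**
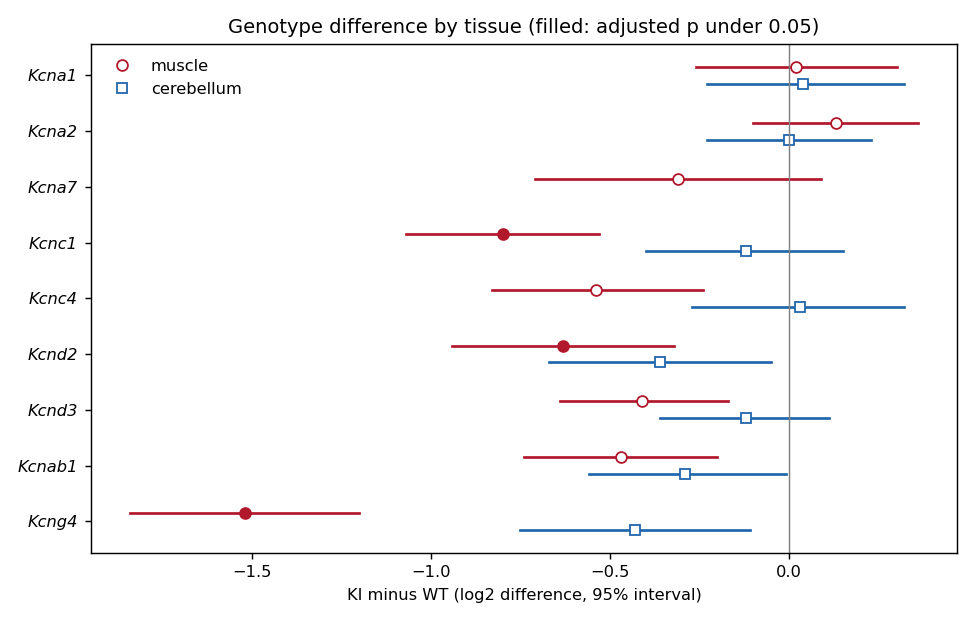
KI minus WT on the log2 scale (horizontal axis) with its 95% interval for each subunit in muscle (circles) and cerebellum (squares); filled symbols passed an adjusted p of 0.05. The 3 filled symbols are Kcnc1, Kcnd2 and Kcng4 in muscle, and in the cerebellum the intervals of Kcng4, Kcnd2 and Kcnab1 lie below 0 without passing.

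Whether the genotype difference itself differed between the tissues was tested as the muscle difference minus the cerebellum difference. No subunit passed: 0 of 9 were called in limma, 0.143% of all 14708 tested genes were, and 4 of the 9 had an unadjusted p under 0.05 (13.8% of all tested genes). The difference for Kcng4 was -1.09 ± 0.20 (SE; 95% interval -1.54 to -0.63; limma adjusted p = 0.0884). It passed with trended and robust variances (0.0437), and over the alternatives its adjusted p ran from 0.0437 to 0.318. Kcnc1 was at -0.67 ± 0.17 (adjusted p = 0.151), Kcna7, which is at a low level in the cerebellum, at -0.65 ± 0.25 (0.322) and Kcnc4 at -0.56 ± 0.18 (0.257). For Kcnd2 the interval of the difference between tissues ran from -0.70 to 0.17 and for Kcnab1 from -0.57 to 0.20. The calls of Kcng4, Kcnc1 and Kcnd2 in muscle and their lack in the cerebellum are thus not shown to differ between the tissues in the main fit.

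The third comparison set muscle against cerebellum, with both genotypes averaged. Of the 9 subunits 7 were lower in muscle and 1 was higher, at an adjusted p under 0.05 and at least 2-fold; 26% of all 14708 genes were called by the same rule, 15% lower and 11% higher. Kcnd2 was lower in muscle by a log2 difference of -5.31 ± 0.10 (SE; limma adjusted p = 1.02e-10), which is set against KI muscle arrays below their 40th percentile and so depends on the background of the array. Kcna2 was 12.3-fold, Kcna1 11.9-fold and Kcnab1 11.7-fold lower (-3.62 ± 0.07, -3.58 ± 0.09 and -3.55 ± 0.09), and the intervals of these 3 overlap. Kcnd3 was 5.18-fold and Kcnc1 2.94-fold lower. Kcna7 was the one called higher in muscle (2.97 ± 0.13; adjusted p = 2.07e-08). Only 1 of its 4 cerebellum arrays reached the 40th percentile, so the size of this difference depends on the background too. Kcnc4 had a difference of 0.96 ± 0.09, just under 2-fold, and was called in 7 of 20 alternatives, in which the value reached the 2-fold mark. In bulk tissue, fewer cells of a type and less RNA per cell cannot be told apart.

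**Figure D3:**
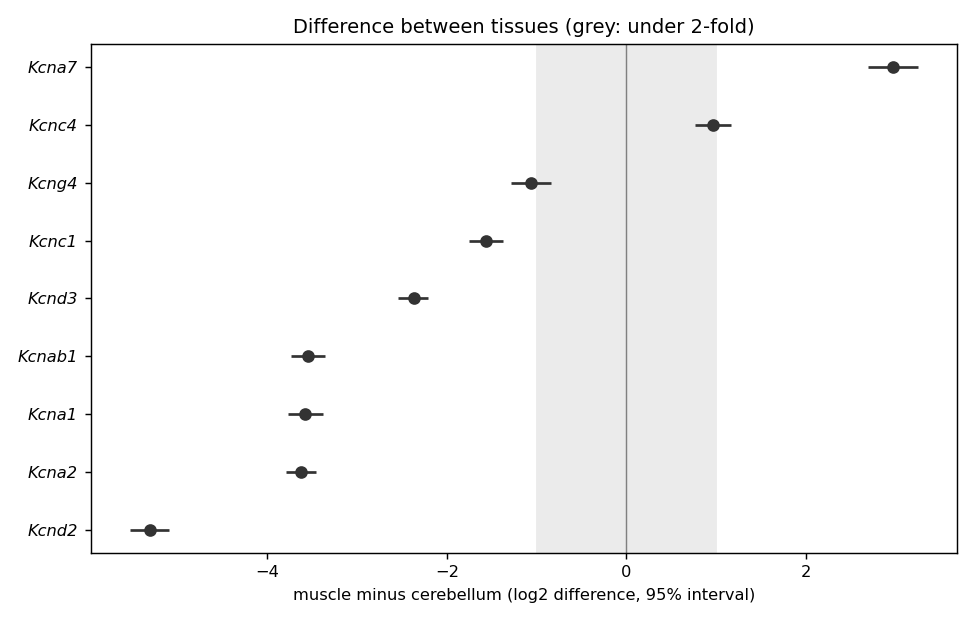
Muscle minus cerebellum on the log2 scale (horizontal axis), averaged over genotypes, with the 95% interval for each of the 9 subunits; the grey zone is a change under 2-fold. Kcna7 stands at 2.97, Kcnc4 at 0.96, and the other 7 lie between -5.31 and -1.06.

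The order of the 4 groups differed among the subunits. For Kcng4 it ran from WT cerebellum (8.00 ± 0.11) through KI cerebellum (7.57 ± 0.14) and WT muscle (7.48 ± 0.10) to KI muscle (5.96 ± 0.24; SD, n = 2 each). The arrays of KI cerebellum and WT muscle overlapped, so the order of these neighbours is not settled. Its tissue gap was -1.06 ± 0.10 over both genotypes but -0.52 ± 0.14 in the WT arrays alone (limma adjusted p = 0.00958), which is under 2-fold. It was also under 2-fold without KI muscle replicate 94 (-0.98) and after another quantile normalisation (-0.96). For Kcnc1 both cerebellum groups (8.63 ± 0.10 in KI, 8.75 ± 0.07 in WT) were above WT muscle (7.53 ± 0.06) and KI muscle (6.73 ± 0.17). For Kcnc4 the order was turned, with WT muscle (8.42 ± 0.11) above KI muscle (7.89 ± 0.13) and both above the cerebellum groups (7.20 ± 0.14 and 7.18 ± 0.14), which overlapped.

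Of 54 Kv alpha and auxiliary genes listed, 49 were matched on the array, and 40 of these are not among the 9. In muscle 21 of the 40 were tested, 1 was called higher and 0 lower in limma. An unadjusted p under 0.05 was found for 2 of the 21, against 20.3% of all tested genes. One call in 21 is near the 3.55% called over all tested genes. Their median difference was -0.12 and 18 of the 21 were negative, where 45% of all tested genes were. The one called was Kcne1l, a small accessory subunit of the KCNE family also named Kcne5, at 5.84 and 5.80 in KI and 5.08 and 5.33 in WT muscle (0.61 ± 0.12; limma adjusted p = 0.0294). Its call was lost in 8 of 18 alternatives, 5 of them single arrays left out: KI muscle replicate 94 or 97, WT muscle replicate 95, and WT cerebellum replicate 95 or 96, and its adjusted p ran from 0.027 to 0.161. Kcng1, another modifier subunit, was at -0.33 ± 0.10 (adjusted p = 0.119). In muscle 18 of the 40 were below the 40th percentile on all 4 arrays, among them Kcna4, Kcna6, Kcnc2 and the Kv4 partners Kcnip1, Kcnip2 and Kcnip4.

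In the cerebellum 31 of the 40 were tested, 1 was called higher and 0 lower in limma, with 3 at an unadjusted p under 0.05. Over all tested genes 0.205% were called and 5.33% had an unadjusted p under 0.05. The median of the 31 was 0.10, and 10 of the 31 were negative (52.5% of all tested genes). The one called was Kcnb2, a Kv2 alpha subunit, at 5.79 and 5.97 in KI and 5.14 and 5.04 in WT (0.79 ± 0.11; limma adjusted p = 0.0317). Its call was kept in 5 of 18 alternatives and lost with each of the 8 arrays left out in turn, and adjusted p ran from 0.0302 to 0.334. Kcnip4, a calcium-binding partner of Kv4 channels, was at -0.58 ± 0.24 (adjusted p = 0.898) and Kcnh2, the ERG channel, at 0.32 ± 0.13 (0.855).

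**Figure D4:**
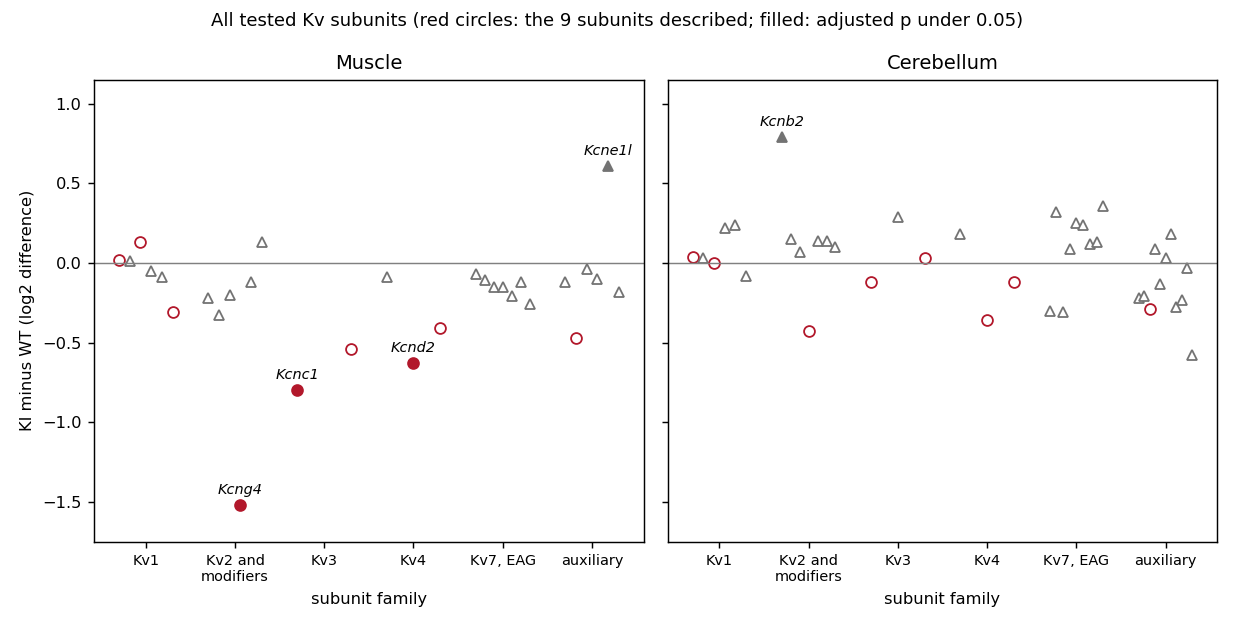
KI minus WT on the log2 scale (vertical axis) for all tested Kv subunits by family (horizontal axis) in muscle and cerebellum; circles are the 9 subunits described, triangles the other Kv genes, and filled symbols passed an adjusted p of 0.05. In muscle Kcng4, Kcnc1 and Kcnd2 lie below 0 and Kcne1l above it; in the cerebellum only Kcnb2, at 0.79, is filled.

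Other genes of membrane excitability and fibre state were read beside the Kv results in muscle, where 3.55% of all tested genes were called, 0.89% were called lower and 45% had a negative difference. Of 8 matched excitability genes 1 fell, the calcium channel and voltage sensor Cacna1s (-0.54 ± 0.11, SE; limma adjusted p = 0.0328), and 7 did not pass; the median was -0.17. The ATP-sensitive channel subunit Kcnj11 was at -0.38 ± 0.12 (adjusted p = 0.137) and Atp1b1, a sodium pump subunit, at -0.39 ± 0.14 (0.168). Of 13 fast-twitch fibre markers 4 fell, Casq1, Actn3, Tnni2 and Pvalb, 9 did not pass, and all 13 were negative (median -0.54). Their mean log2 level was between 11.11 and 11.30 on the KI arrays and between 11.64 and 11.74 on the WT arrays. Of 10 slow-twitch markers Casq2 rose and Myl3 fell (median -0.02). Myl3 read 6.11 and 5.90 in KI and 8.95 and 7.77 in WT muscle, a wide spread within WT. The mean level of the 10 was 6.78 and 7.07 on the KI arrays and 7.25 and 6.75 on the WT arrays, so the genotypes overlapped. Of 11 tested denervation-responsive genes 4 rose, Musk, Runx1, Chrna1 and Chrnb1, and 7 did not pass (median 0.38). The list did not move in one direction: the difference was positive in 7 of the 11 and negative in 4, down to -0.5. The genotypes did not overlap in any of the 11. Both KI arrays were the higher ones in 7 (30.3% of all tested genes) and the lower ones in 4 (19.9%). Leaving out any single muscle array (KI replicate 94 or 97, WT replicate 95 or 96) ended the calls of Cacna1s, the 4 fast-twitch genes and Chrna1. Leaving out WT cerebellum replicate 95 or 96 ended those of Cacna1s, Actn3, Tnni2, Pvalb and Chrnb1, and KI cerebellum replicate 94 or 97 that of Tnni2. Chrnb1 was also lost without either WT muscle array or KI muscle replicate 97. Over all alternatives adjusted p reached 0.128 for Cacna1s, 0.0873 for Casq1, 0.144 for Actn3, 0.194 for Tnni2, 0.167 for Pvalb, 0.125 for Chrna1 and 0.124 for Chrnb1. Musk, Runx1 and Casq2 were called in all 19 alternatives, and Myl3 in 18 of 19.

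Markers of other cell types in muscle moved as follows. Macrophage markers (8 matched, 7 tested) were positive in 7 of 7 with none called. Over all tested genes in muscle 45% were negative and 3.55% were called. The mean of the macrophage markers was between 6.01 and 6.20 in KI and between 5.87 and 5.88 in WT. Of these markers Cd14 was below the 40th percentile on all 4 arrays. The 6 matched Schwann cell and nerve markers averaged between 5.99 and 6.36 in KI and between 6.08 and 6.22 in WT, and Nefm was below the 40th percentile on all 4. Fibroblast and endothelial markers (7) averaged between 8.29 and 8.38 in KI and between 8.30 and 8.40 in WT. The part of fibre type, denervation state or macrophages in the differences of Kcng4, Kcnc1 and Kcnd2 was not tested.

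In the cerebellum the 6 matched neuron markers were all negative (median -0.30), as were 52.5% of all tested genes. In limma 0 of the 6 were called (0.205% of all tested genes), and 2 had an unadjusted p under 0.05 (5.33%). The mean level of the 6 markers was between 10.01 and 10.25 on the KI arrays and between 10.47 and 10.58 on the WT arrays. Pcp2 and Calb1, both Purkinje cell genes, were at -0.89 ± 0.17 (adjusted p = 0.148) and -0.57 ± 0.13 (0.31), and Gabra6, the GABA receptor subunit of granule cells, was at -0.22 ± 0.14. These markers lay lower beside Kcng4, Kcnd2 and Kcnab1, and their part in those differences was not tested.

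The genes closest to each subunit in profile over the 8 arrays were named by the root mean square (RMS) difference in log2. Each gene was first centred on its own mean. The tissue gap weighs most where it is the largest difference of a subunit, and all genes share the same arrays. For Kcng4 the KI minus WT difference in muscle (-1.52) was larger than the tissue gap (-1.06), so genotype weighs in the choice of its neighbours as well. Nearest to Kcng4 were Mical2 (RMS 0.257), Inha (0.29) and Tlcd3b (0.336). Their KI minus WT differences in muscle were -1.35 for Mical2, -1.10 for Inha and -1.07 for Tlcd3b, and in the cerebellum -0.18, -0.17 and -0.10. These differences are part of the profile by which the genes were picked, so they are no separate result. Nearest to Kcnc1 was Nrep (0.141), then Celf3 (0.149) and St8sia5 (0.15). Kcna7 was closest to Kcnj2, an inward-rectifier potassium channel of muscle (0.133), and Kcnc4 to Tmem11 (0.101). Kcnd2 was closest to Pcp4, a calmodulin regulator of Purkinje cells (0.169), and Gria1, an AMPA receptor subunit, came next (0.178). Kcna1 was closest to Slc12a5, the neuronal potassium-chloride cotransporter (0.0565), Kcna2 to Map1a (0.0935), Kcnd3 to Osbp2 (0.0965) and Kcnab1 to the phosphatase gene Ptprr (0.128). Of the 9 nearest distances, that of Kcna1 was the smallest and that of Kcng4 the largest.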

How the data were processed

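Per the submitters' processing notes, GCOS and RMA made the deposited log2 values; RMA corrects background, normalises between arrays and summarises the probes of a set. No version, filter or genome build was found in the sources used here. Of 35556 probe sets, 21789 carried 1 gene symbol in the platform annotation, 1621 several and 12146 none; the brightest probe set stood for a gene.

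Genes entered a tissue's test if 2 or more of the 4 arrays reached the array's 40th percentile. One limma fit (limma 3.58.1, R 4.3.3) with a mean per group covered all 4 groups, with 4 residual and 5.3 prior degrees of freedom. All adjusted p values are Benjamini-Hochberg values from limma fits over all tested genes. The fit was tested on simulated data. The 2 arrays per group limit the precision. The members and lists were chosen with earlier results of these data known. Named genes were the 9 subunits, Tbp, at most 4 genes of each list with the smallest p, and up to 3 nearest profiles per subunit; markers and Kv genes named for a low level were chosen after their values were seen. Promoters are RefSeq's (GRCm38.p6), the 250 bases before the start; Kcna1 had no entry. Alternatives changed the filter, scaling, variance model, probe set rule, threshold, arrays fitted and replicate block.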

Additional observations from a re-analysis of the deposited data

How the results depend on the processing

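Of 21 alternatives, some moved a count of called subunits. In muscle, where 3 were called, 5 were called with trended and robust variances, 6 at an adjusted p under 0.1 and 1 with all probe sets in the fit. Without Kcnd2, 2 were called with no filter, a filter at the 20th percentile, another quantile normalisation or the muscle arrays alone. With a filter at the 60th percentile, which left 5 of the 9 in the test, Kcnc4 was called and Kcnd2 was not tested; leaving out one array gave 1 to 3. For the difference between tissues, where 0 were called (4 at an unadjusted p under 0.05), 1 was called with trended and robust variances and 1 at an adjusted p under 0.1, and leaving out one array gave 0. In the cerebellum 0 were called in every limma alternative run (3 at an unadjusted p under 0.05), and between tissues 7 to 9. No called difference changed sign. The mean of both Kcna2 probe sets gave -0.12 in muscle in place of 0.13.

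Over all genes, 495 were called in muscle, 246 with no filter, 155 with the muscle arrays alone, 69 with all probe sets, 995 at an adjusted p under 0.1, and 105 to 385 without one array. In the cerebellum 28 were called, 18 with no filter, 6 with all probe sets and 4 to 29 without one array. For the difference between tissues 21 were called, 3 with no filter, 38 with a filter at the 60th percentile, 63 with trended and robust variances, 0 with all probe sets, 108 at an adjusted p under 0.1 and 0 to 23 without one array.

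Deviations of same-numbered arrays from their group means correlated with r = 0.0566 in KI and -0.0965 in WT over 14708 genes, and no label calls the numbers animals, so they were not taken as pairs. With the replicate block as a random effect 3 subunits were called in muscle and 0 in the cerebellum, and 494 and 27 of all genes. As a fixed effect it gave 0 subunits for the difference between tissues (14 of all genes) and 8 for muscle against cerebellum. Levels near the 40th percentile, such as those of Kcnd2 and Kcnd3 in muscle, limit what a fold can show.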

Other observations

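Other potassium channels did not pass in either tissue. Of 21 inward-rectifier, calcium-activated and leak channel genes, 14 were tested in muscle and 19 in the cerebellum. In limma 0 were called in each (3 and 2 at an unadjusted p under 0.05). Over all tested genes 3.55% were called in muscle and 20.3% had an unadjusted p under 0.05, against 0.205% and 5.33% in the cerebellum. Kcnn3, the small-conductance channel known to return in denervated fibres, was at 0.38 ± 0.13 in muscle (SE; adjusted p = 0.145). In the cerebellum the leak channels Kcnk3 (-0.37 ± 0.11; adjusted p = 0.573) and Kcnk10 (-0.38 ± 0.13; 0.752) had the smallest p. Proteins that cluster Kv1 channels on axons had a positive median in muscle (0.12; 10 tested, 0 called, 3 at an unadjusted p under 0.05), led by the scaffold Dlg4 at 0.44 ± 0.13 (limma adjusted p = 0.0982). Cntnap2, which anchors Kv1 channels beside the node of Ranvier, was at 0.42 ± 0.11 in the cerebellum (0.413).

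Neuronal sodium, calcium and HCN channels were also read in both tissues. An unadjusted p under 0.05 was found for 20.3% of all tested genes in muscle and 5.33% in the cerebellum. In limma 3.55% and 0.205% of all tested genes were called. None of 11 passed in the cerebellum (0 called in limma, 1 at an unadjusted p under 0.05), where the T-type calcium channel Cacna1g was at -0.39 ± 0.16 (adjusted p = 0.86). In muscle 8 were tested and 0 called (1 at an unadjusted p under 0.05), and Scn4b, a sodium channel beta subunit, was at -0.66 ± 0.18 (SE; limma adjusted p = 0.0774).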
